A study of Mus musculus with 4 samples.

Results

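The 9 genes described here, Dusp4, Dusp5, Dusp6, Etv4, Etv5, Spry2, Spry4, Spred1 and Spred2, are genes that growth factor signalling through the kinase ERK induces, and 7 of them encode brakes on the same pathway. They were chosen by symbol from the 24444 genes of a deposited expression table, with their difference between the genotypes already known from earlier results. That difference is therefore given as a description, with no p-value for any of the 9 genes. The table holds poly(A) RNA sequencing of cultured oesophageal cells from C57BL/6J mice in 4 libraries. The 2 Nrf2-HET libraries are labelled as coming from CRISPR/Cas9 microinjection with an Nfe2l2-E79Q cassette, in which glutamate is replaced by glutamine in the transcription factor NRF2. The 2 Nrf2-WT libraries carry no cassette, and neither group was treated otherwise according to the labels. The series title calls the mouse conditional, but the sources used here do not say whether a recombinase was used in these cells, how old the mice were, how often the cells were passaged, or whether the 2 libraries of a genotype came from separate animals. All 4 column names carry the word SV40, which the labels do not explain.

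Receptor tyrosine kinases such as EGFR pass their signal through RAS, RAF and MEK to ERK. Active ERK switches on transcription within minutes to hours, and a set of its targets turns the pathway down again. The dual-specificity phosphatases DUSP4, DUSP5 and DUSP6 remove the activating phosphates of ERK. Sprouty proteins, among them SPRY2 and SPRY4, block the step between receptor and RAF, and the SPRED proteins bring the RAS inactivator neurofibromin to the membrane. ETV4 and ETV5 are ETS transcription factors of the PEA3 group, which carry the response on. Because these messages follow ERK activity, they are widely read as a sign of it in squamous epithelium and its tumours. ERK phosphorylation itself was not measured here.

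The deposited values are variance-stabilised normalised counts on a log2-like scale, with a floor at 6.98 for genes without reads. In every gene the Nrf2-HET and Nrf2-WT values of replicate 1 add up to the same sum as those of replicate 2, so the values had been centred on the replicate number. The spread between replicates is therefore the same in both genotypes by construction. Within a genotype it holds only how far the differences of the 2 pairs lie apart. Genotypes that do not overlap mean only that both pairs have the same direction. Differences below are Nrf2-HET minus Nrf2-WT ± SE from limma with the replicate number as a block (n = 2 pairs). The libraries held between 13.5 and 13.9 M normalised counts by an approximate back-calculation from these values. Nfe2l2 itself lay at 11.17 and 11.27 in Nrf2-HET and at 11.38 and 11.27 in Nrf2-WT (-0.10 ± 0.05, limma adjusted p = 0.154), which does not check a substitution. The squamous markers Krt5, Krt14 and Trp63 were far above the floor in all 4 libraries, with Krt5 at 15.79 and 15.84 in Nrf2-HET and at 15.85 and 15.80 in Nrf2-WT. Of the immune list Ptprc, Cd3e and Adgre1 lay at the floor in every library, while Cd68 lay at 9.22 and 9.30 in Nrf2-HET and at 8.63 and 8.54 in Nrf2-WT. Of the fibroblast list Lum lay at the floor, while Fbln2 lay at 10.66 and 10.67 in Nrf2-HET and at 11.18 and 11.17 in Nrf2-WT.

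All 9 feedback genes were higher in both Nrf2-HET libraries than in both Nrf2-WT libraries. In 9 of 9 the gap between the genotypes exceeded the distance between replicates. In centred values this means only that both pairs had the same direction and neither difference was several times the other. It was not counted over all tested genes, so nothing is read from it. The differences of the 9 genes ran between 0.24 and 0.997, and 6 of 9 reached 0.5. Of the 10857 genes tested, 79.2% had genotypes that did not overlap, 41.1% lay higher in both Nrf2-HET libraries, and 2.74% had a difference of 0.5 or more. A gene entered the test where at least 2 libraries lay 1 above the lowest value of the table. Of the 9 feedback genes 8 passed this level, all of them in all 4 libraries, and Spry4 passed it in 0. Of those 8, 8 were called higher and 0 lower at an adjusted p under 0.05, where 21.5% of all tested genes were called higher and 18.9% lower. The median difference of the 8 was 0.67, beside 0.01 over all tested genes. The choice of the genes used this same contrast, so nothing is read from these counts.

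**Figure D1:**
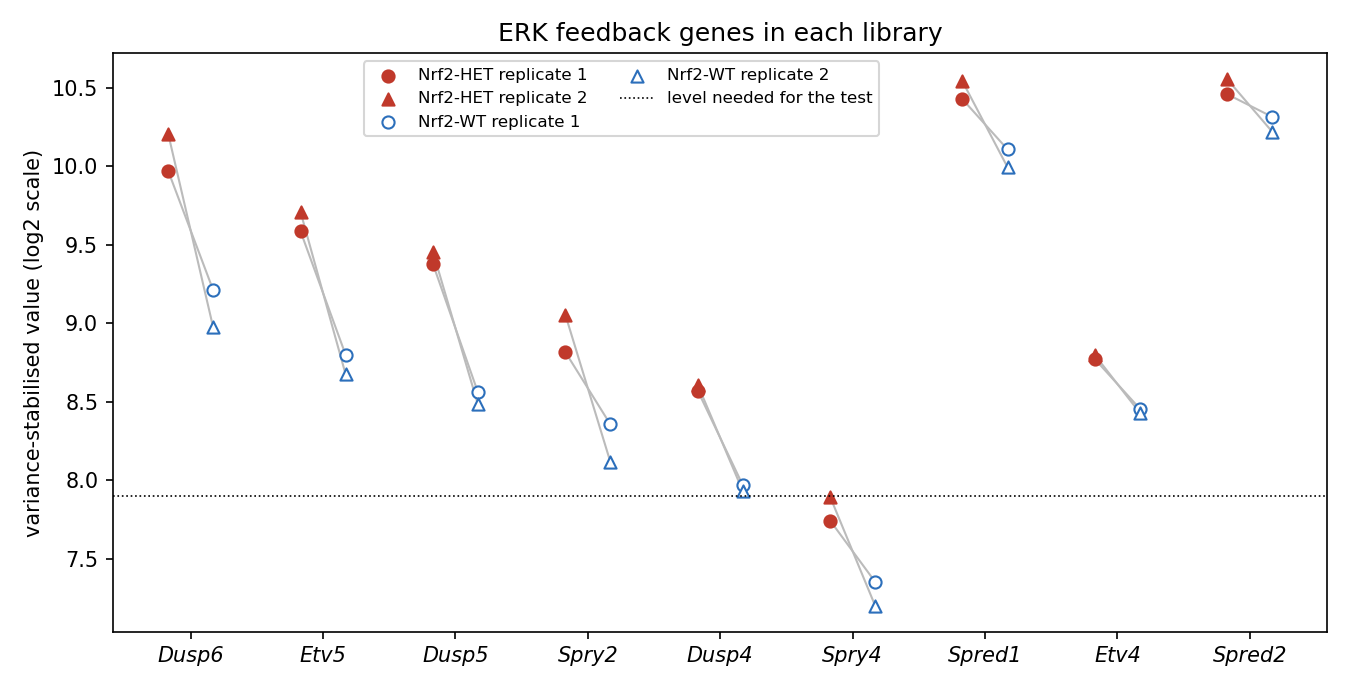
Variance-stabilised value (vertical axis, log2 scale) of the 9 feedback genes in each library, ordered by difference, with Nrf2-HET (filled) left of Nrf2-WT (open), circles for replicate 1, triangles for replicate 2 and a grey line joining the libraries of 1 replicate number. All lines slope down to Nrf2-WT, steepest for Dusp6, and Spry4 alone lies under the level needed for the test (dotted).

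Among the phosphatases Dusp6, whose product acts on ERK in the cytoplasm, had the largest difference on the deposited scale. It lay at 9.97 and 10.21 in Nrf2-HET, against 9.21 and 8.98 in Nrf2-WT. Dusp6 was high in both Nrf2-HET libraries and lowest in Nrf2-WT replicate 2, with no overlap (0.997 ± 0.084). Only 0.433% of the tested genes had a larger difference. Its back-calculated normalised counts were 769 and 946 in Nrf2-HET and 368 and 283 in Nrf2-WT, a 2.63-fold ratio of means, 2.09-fold in pair 1 and 3.34-fold in pair 2.

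Dusp5 encodes a nuclear phosphatase that is selective for ERK. Its values were 9.38 and 9.46 in Nrf2-HET, against 8.56 and 8.48 in Nrf2-WT. The differences of Dusp5 were 0.82 in pair 1 and 0.97 in pair 2 (0.90 ± 0.07). The ratio of normalised counts was 2.87-fold, with 2.61-fold in pair 1 and 3.15-fold in pair 2.

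Dusp4, a further nuclear phosphatase that also acts on the related kinases JNK and p38, lay at 8.57 and 8.61 in Nrf2-HET, against 7.97 and 7.93 in Nrf2-WT. Here the differences were 0.60 in pair 1 and 0.68 in pair 2 (0.64 ± 0.07). Dusp4 was nearer to the floor than Dusp5 and Dusp6, where the deposited scale compresses changes. By the ratio of normalised counts, 2.93-fold (2.74-fold and 3.13-fold in the pairs), it stood beside Dusp5 and above Dusp6.

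Of the Sprouty genes, Spry2 lay at 8.82 and 9.06 in Nrf2-HET, against 8.36 and 8.12 in Nrf2-WT. The libraries of replicate 2 stood farther apart than those of replicate 1, without overlap between genotypes (0.70 ± 0.09, the largest SE of the 8 tested feedback genes). Its ratio of normalised counts was 1.89-fold in pair 1 and 3.74-fold in pair 2.

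Spry4 lay near the floor, at 7.744 and 7.895 in Nrf2-HET and at 7.353 and 7.202 in Nrf2-WT. Its higher Nrf2-HET library was just short of the level of 7.897 needed for the test. The back-calculated normalised counts were 36.4 and 52.7 in Nrf2-HET and 8.59 and 3.04 in Nrf2-WT. The direction was the same in both pairs, with a difference of 0.54. No ratio is given for Spry4, because the Nrf2-WT values lay so near the floor that the centring of the values can move them strongly.

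Of the SPRED genes, Spred1, mutated in Legius syndrome in humans, lay at 10.43 and 10.54 in Nrf2-HET, against 10.11 and 10.00 in Nrf2-WT. Both Nrf2-HET libraries of Spred1 were above both Nrf2-WT libraries (0.43 ± 0.06, a 1.45-fold ratio of normalised counts). Spred2 lay at 10.46 and 10.56 in Nrf2-HET, against 10.32 and 10.22 in Nrf2-WT. It had the smallest difference of the 9 (0.24 ± 0.06, with ratios of normalised counts of 1.13-fold in pair 1 and 1.32-fold in pair 2), and 11.5% of the tested genes had a larger one.

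The ETS genes were unequal. Etv5 lay at 9.59 and 9.71 in Nrf2-HET, against 8.80 and 8.68 in Nrf2-WT (0.91 ± 0.07, a 2.68-fold ratio of normalised counts). Etv4 lay at 8.77 and 8.80 in Nrf2-HET, against 8.46 and 8.43 in Nrf2-WT (0.34 ± 0.07, 1.59-fold). On the deposited scale Etv5 thus moved like the phosphatases Dusp5 and Dusp6 in size, and Etv4 stood between Spred2 and Spred1. By the ratio of normalised counts Etv4 stood above Spred1 (1.45-fold). The differences of Dusp6, Etv5 and Dusp5 overlapped within their SEs, as did those of Spry2 and Dusp4, and no test was made between genes.

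The sequences before the annotated starts are shown for genes at both ends of this order, Dusp6, Dusp5 and Spry2 with large differences and Spred2 with the smallest. They come from RefSeq (GRCm38.p6), hold the 250 bases before the start, 5′ to 3′ along the gene, and were read from that assembly and not from these libraries. RefSeq windows are described for 6 of the 9 genes. None was at hand for Dusp4 and Etv4. Spry4 was left out after the search, for no recorded reason, so the motif counts below do not cover it. Short capital runs mark the ETS core GGAA or its complement TTCC, the run of 9 capitals in Dusp5 marks a match to the antioxidant response element core TGACNNNGC on the other strand, and its run of 20 capitals marks 2 adjoining CArG boxes, the letters that serum response factor binds.
Dusp6, chr10:99262981-99263230, plus strand: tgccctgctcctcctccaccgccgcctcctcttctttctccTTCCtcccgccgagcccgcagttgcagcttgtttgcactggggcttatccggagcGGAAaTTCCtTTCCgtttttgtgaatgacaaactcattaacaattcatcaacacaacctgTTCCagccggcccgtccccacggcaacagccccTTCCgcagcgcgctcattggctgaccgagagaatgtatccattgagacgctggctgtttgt
Dusp5, chr19:53528895-53529144, plus strand: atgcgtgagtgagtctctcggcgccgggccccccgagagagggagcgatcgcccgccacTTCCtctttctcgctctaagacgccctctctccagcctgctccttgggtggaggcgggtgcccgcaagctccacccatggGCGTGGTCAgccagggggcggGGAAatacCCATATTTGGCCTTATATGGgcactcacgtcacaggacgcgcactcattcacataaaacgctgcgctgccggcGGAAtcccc
Spry2, chr14:105896820-105897069, minus strand: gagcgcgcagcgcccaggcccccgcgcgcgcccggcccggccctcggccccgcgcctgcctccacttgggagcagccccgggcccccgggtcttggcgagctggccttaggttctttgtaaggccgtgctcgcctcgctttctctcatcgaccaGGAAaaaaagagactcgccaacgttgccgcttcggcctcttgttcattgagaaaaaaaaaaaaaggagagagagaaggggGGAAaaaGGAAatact
Spred2, chr11:19924192-19924441, plus strand: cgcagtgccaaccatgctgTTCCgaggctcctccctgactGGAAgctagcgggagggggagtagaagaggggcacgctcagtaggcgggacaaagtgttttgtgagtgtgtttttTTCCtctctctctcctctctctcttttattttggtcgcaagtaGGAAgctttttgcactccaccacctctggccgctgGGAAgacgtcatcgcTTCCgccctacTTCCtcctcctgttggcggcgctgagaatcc

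Both strands were searched in all 32851 promoter windows of the same length. GGAA occurred 6 times in Dusp6, 3 times in Dusp5, 3 times in Spry2 and 7 times in Spred2. A relation to the size of the difference was not tested. GGAA occurs in 93.4% of all windows, with a median of 3 matches. Spred1 held 4 matches, and the 2 annotated starts of Etv5 held 4 and 0. The longer ETS letters CCGGAAGT (2.88% of all windows), the AP-1 letters TGANTCA (6.75%) and the cyclic AMP element TGACGTCA (1.55%) were in 0 of the 7 windows of these genes. The CArG box was found in Dusp5 alone among them, 2 times, and in 1.47% of all windows; it was added to the search after the Dusp5 sequence had been seen. The antioxidant response element core was also found in Dusp5 alone, and in 10.2% of all windows. These matches describe letters in a short window and not binding.

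The other members of the 3 families did not all move with the feedback genes. The table holds 10 of them. Of these, 8 were tested, with 3 called higher and 1 lower, a median of 0.11, beside 40.4% of all tested genes called in either direction. Dusp1, an immediate early phosphatase of ERK, JNK and p38, lay at 10.09 and 10.28 in Nrf2-HET and at 9.58 and 9.38 in Nrf2-WT and rose by 0.70 ± 0.08 (limma adjusted p = 2.42e-06). Dusp7, which encodes a cytoplasmic ERK phosphatase close to DUSP6, lay at 12.19 and 12.28 in Nrf2-HET and at 11.66 and 11.57 in Nrf2-WT and rose by 0.62 ± 0.05 (limma adjusted p = 1.28e-07). Dusp8, which acts mainly on JNK and p38, rose by 0.44 ± 0.06 (limma adjusted p = 4.48e-05). Against these, Dusp10, a phosphatase of JNK and p38, lay at 8.28 and 8.29 in Nrf2-HET and at 8.54 and 8.52 in Nrf2-WT and fell by 0.25 ± 0.07 (limma adjusted p = 0.0107).

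The remaining relatives were not called. Dusp9, of the same cytoplasmic group as Dusp6, differed by 0.00 ± 0.07, with a sign that turned under other scalings. Dusp16, a further JNK and p38 phosphatase, differed by 0.12 ± 0.06 (limma adjusted p = 0.122). Its difference was 0.16 without replicate 1 of Nrf2-HET. Leaving out replicate 1 of Nrf2-WT gives the same value by construction in centred values. Spry1 differed by 0.10 ± 0.07 (limma adjusted p = 0.278). Once the replicate block was dropped its limma adjusted p was 0.0411, but that fit counts too many residual degrees of freedom for centred values. Spred3 differed by -0.05 ± 0.07 (limma adjusted p = 0.601). Dusp2 and Etv1 were too low to test, and Etv1, the third PEA3 gene, was lower in both pairs, at 7.31 and 7.23 in Nrf2-HET and 7.38 and 7.47 in Nrf2-WT.

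**Figure D2:**
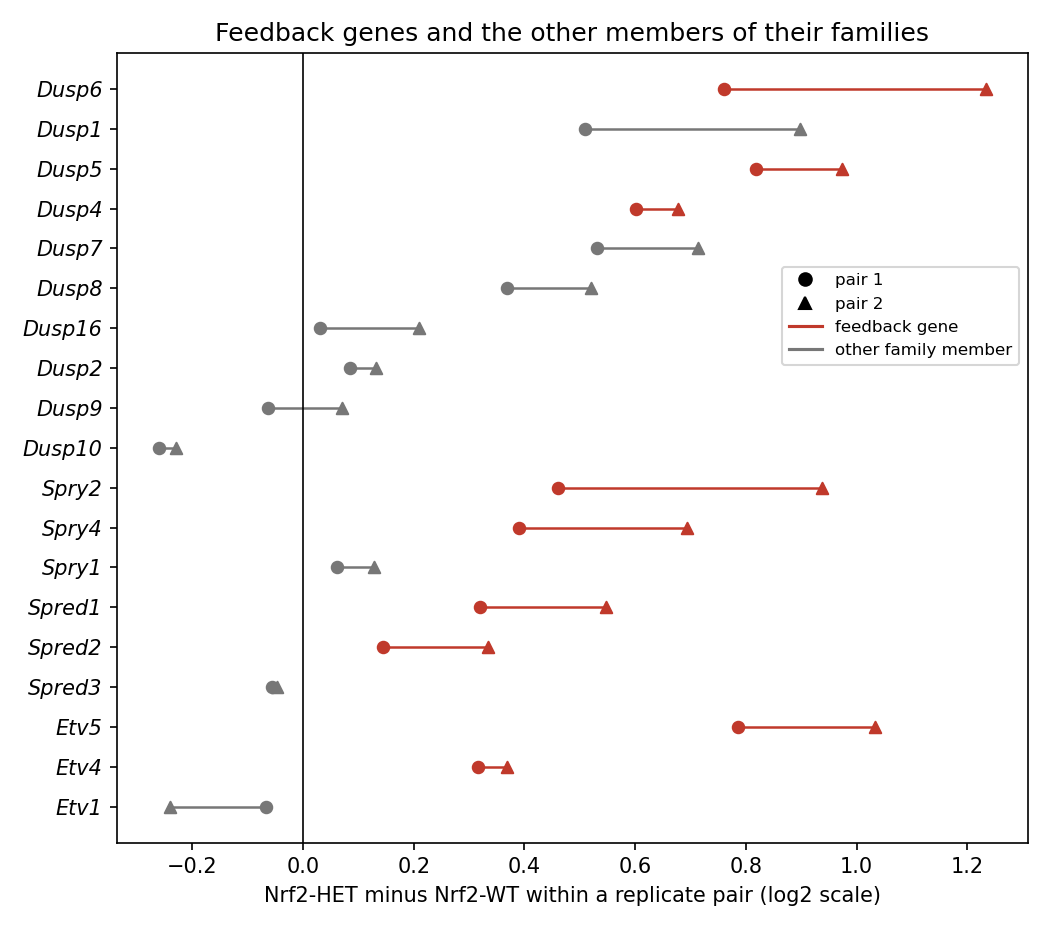
Difference between Nrf2-HET and Nrf2-WT within each replicate pair (horizontal axis, log2 scale; circle pair 1, triangle pair 2) for the 9 feedback genes (red) and the 10 other family members (grey). All red points lie right of 0, whereas Dusp10, Spred3 and Etv1 lie left of it in both pairs and Dusp9 on either side.

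Upstream of these genes, messages of the RAS-ERK cascade itself were called in both directions. Of 22 cascade genes tested 4 were called higher and 6 lower, with a median of 0.01, beside 21.5% higher, 18.9% lower and a median of 0.01 over all tested genes. The share of the cascade called, 45.5%, is near the 40.4% of all tested genes. The exchange factor gene Sos2 rose by 0.43 ± 0.06 (limma adjusted p = 6.20e-05), the RAS relative Rras2 by 0.32 ± 0.06 (0.00105) and the kinase gene Braf by 0.26 ± 0.05 (0.000867). Mapk3, which encodes an ERK kinase, fell by 0.17 ± 0.05 (limma adjusted p = 0.0157). The MEK gene Map2k2 fell by 0.19 ± 0.05 (limma adjusted p = 0.00719), the adaptor gene Gab1 by 0.23 ± 0.06 (0.00848) and the ERK substrate kinase gene Rps6ka1 by 0.23 ± 0.05 (0.00223). Dropping the replicate block ended the calls of Rras2 (adjusted p = 0.0611) and Gab1 (0.0581).

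At the receptors, 4 of the EGFR ligand genes were far higher and most receptor genes were not. All 6 tested ligand genes were called higher, with a median of 1.46, beside 21.5% of all tested genes called higher. Areg, amphiregulin, lay at 9.80 and 10.16 in Nrf2-HET, against 8.45 and 8.09 in Nrf2-WT, and Ereg, epiregulin, at 9.89 and 10.22 in Nrf2-HET, against 8.83 and 8.51 in Nrf2-WT. Epgn, epigen, lay at 9.74 and 9.97 in Nrf2-HET, against 8.22 and 7.99 in Nrf2-WT, and Hbegf, the heparin-binding ligand, at 10.34 and 10.65 in Nrf2-HET, against 9.11 and 8.80 in Nrf2-WT. The genotypes did not overlap in these 4 ligand genes, as in 79.2% of all tested genes. Tgfa and Btc rose less, by 0.30 ± 0.05 (limma adjusted p = 0.000467) and by 0.30 ± 0.08 (0.00647), and Egf was too low to test. Of 8 receptor genes 1 was called higher and 4 lower, with a median of -0.19, beside 21.5% higher and 18.9% lower over all tested genes. Egfr rose by 0.25 ± 0.05 (limma adjusted p = 0.000861). The FGF receptor genes Fgfr1 and Fgfr2 fell by 0.47 ± 0.07 (limma adjusted p = 0.000122) and by 0.41 ± 0.06 (6.85e-05), and Erbb2, the partner of EGFR, fell by 0.29 ± 0.05 (0.000317). Fgfr1 lay at 7.80 and 7.76 in Nrf2-HET, against 8.22 and 8.27 in Nrf2-WT, so it passed the level needed for the test only through Nrf2-WT, where it is higher.

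Genes that ERK is known to induce outside the feedback families were higher together. Of 8 listed output genes 8 were called higher, with a median of 0.95, where 21.5% of all tested genes were called higher. This list, like the others here, was chosen by role with earlier results of these data known, so the count is a description. Fosl1, which encodes the AP-1 subunit FRA1 and is a classical reporter of lasting ERK activity, lay at 9.02 and 9.33 in Nrf2-HET, against 7.94 and 7.63 in Nrf2-WT (1.39 ± 0.11, limma adjusted p = 5.02e-08). Phlda1, whose product binds lipids, lay at 11.10 and 11.33 in Nrf2-HET, against 10.03 and 9.81 in Nrf2-WT (1.29 ± 0.08, limma adjusted p = 3.40e-09). The ephrin receptor gene Epha2 lay at 11.75 and 12.00 in Nrf2-HET, against 10.89 and 10.64 in Nrf2-WT (1.11 ± 0.08, limma adjusted p = 2.95e-08). In each of these 3 genes both Nrf2-HET libraries lay above both Nrf2-WT libraries, as in 41.1% of all tested genes. Fosl1 passed the level needed for the test in both Nrf2-HET libraries, where it is higher, but in Nrf2-WT only in replicate 1. Ccnd1, cyclin D1, had the smallest rise of the 8, 0.23 ± 0.06 (limma adjusted p = 0.00393).

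Immediate early genes, which ERK induces but which also answer to the handling of cells, were called higher in 8 of 9 tested, with a median of 0.62, against the same 21.5% over all tested genes. Fos lay at 10.79 and 11.05 in Nrf2-HET, against 9.90 and 9.64 in Nrf2-WT. Egr1 lay at 12.57 and 12.61 in Nrf2-HET, against 11.99 and 11.95 in Nrf2-WT, and Atf3 rose by 0.67 ± 0.07 (limma adjusted p = 2.92e-06). Nr4a1, an orphan nuclear receptor gene, rose by 0.62 ± 0.07 (limma adjusted p = 3.05e-06). Btg2 was the exception at -0.16 ± 0.07 (limma adjusted p = 0.0598). The part of handling in the values of the feedback genes was not tested.

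Negative regulators outside the feedback families were called in both directions. Of 12 tested 5 were called higher and 2 lower, with a median of 0.10. The share called, 58.3%, stands beside 40.4% of all tested genes. Errfi1, an inducible inhibitor of EGFR, lay at 10.84 and 11.09 in Nrf2-HET and at 10.69 and 10.44 in Nrf2-WT. It rose by 0.40 ± 0.08 (limma adjusted p = 0.00108), but the call ended under robust empirical Bayes (adjusted p = 0.127) and once the replicate block was dropped (0.0900). Nf1, the gene of neurofibromin, the partner of the SPRED proteins, rose by 0.26 ± 0.05 (limma adjusted p = 0.000963), and Rasa2, another RAS inactivator, by 0.20 ± 0.06 (0.0157). Lrig1, which promotes the breakdown of EGFR, lay at 10.66 and 10.73 in Nrf2-HET and at 11.31 and 11.24 in Nrf2-WT and fell by 0.58 ± 0.05 (limma adjusted p = 3.64e-07). Pebp1, the RAF kinase inhibitor protein, fell by 0.21 ± 0.05 (limma adjusted p = 0.00185).

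ETS genes other than Etv4 and Etv5 were called higher in 3 and lower in 4 of 13 tested, with a median of -0.03. The share called, 53.8%, stands beside 40.4% of all tested genes. Ets2 rose by 0.23 ± 0.05 (limma adjusted p = 0.00119), and Etv3, a repressor, by 0.17 ± 0.05 (0.0170). The epithelial factor gene Elf3 fell by 0.40 ± 0.05 (limma adjusted p = 2.84e-05), Elk3, whose product works with serum response factor, by 0.33 ± 0.05 (0.000172), and Etv6 by 0.16 ± 0.05 (0.0292), a call that ended with no filter (adjusted p = 0.0553). Elf2 passed narrowly at 0.14 ± 0.05 (limma adjusted p = 0.0327), and it did not after median centring (adjusted p = 0.0524), quantile normalization (0.0808), with no filter (0.0613) or with no mean-variance trend (0.0672).

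**Figure D3:**
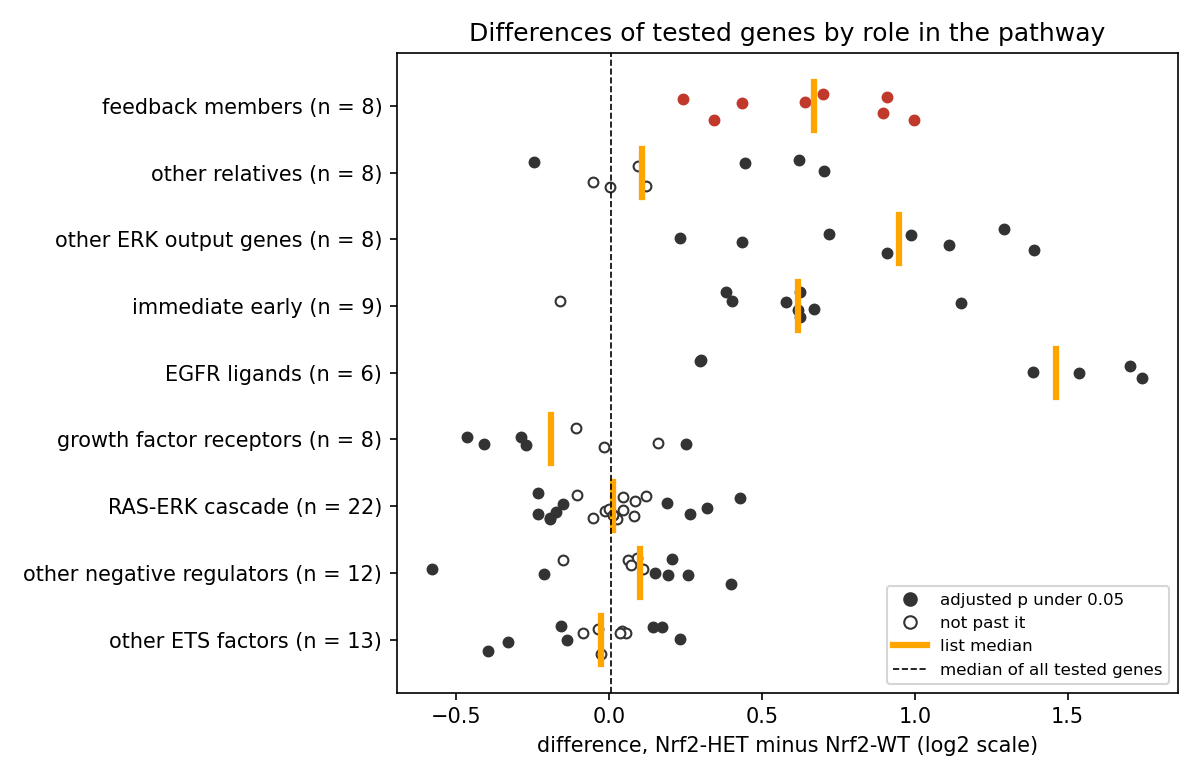
Difference between Nrf2-HET and Nrf2-WT (horizontal axis, log2 scale) of each tested gene, grouped by role, filled where the adjusted p was under 0.05, with the median of each list in orange and that of all tested genes as a dashed line. Feedback genes, other output genes, immediate early genes and EGFR ligands lie mostly to the right. The cascade and the other ETS genes lie around 0, and most receptors lie left of 0 (median -0.19).

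The replicate pairs differed in the size of these differences. The difference was larger in pair 2 than in pair 1 in all 9 feedback genes, by 0.05 in Etv4 to 0.48 in Spry2. Among all tested genes 54.2% had the larger difference in pair 2. The share was 71.8% among those called higher and 83.6% among those called higher by at least 0.5. Counted with its sign, the difference was also larger in pair 2 in all 8 tested other family members and all 10 squamous markers. The same held for 6 of 8 core NRF2 target genes and 11 of 22 cascade genes, so it was not particular to the feedback genes. In the 8 tested feedback genes the median was 0.53 in pair 1 and 0.81 in pair 2. In the other output genes it was 0.77 and 1.13, and in the EGFR ligands 1.15 and 1.78. In 8 core NRF2 target genes, such as Nqo1, Gclc and Slc7a11, the medians of the pairs were close, 1.26 and 1.29, with a wider distance in single genes such as Gclc (1.82 and 2.06). The labels do not say what libraries of 1 replicate number shared, and with 2 pairs this was not tested.

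**Figure D4:**
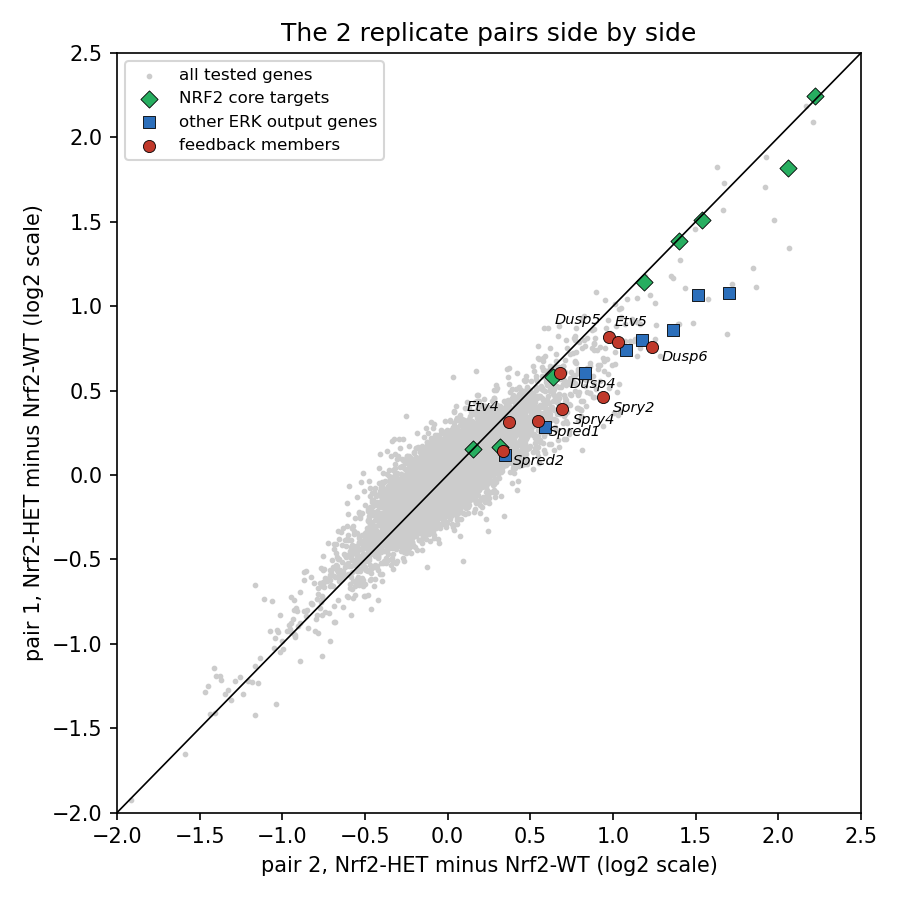
Difference between Nrf2-HET and Nrf2-WT in pair 2 (horizontal) and in pair 1 (vertical), both on the log2 scale, for all tested genes (grey; 2 genes lie outside the axes), the 9 feedback genes (red circles), the other ERK output genes (blue squares) and NRF2 core targets (green diamonds), with the line of equality. The feedback and output genes lie below the line, while most NRF2 targets lie on or close to it.

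By the distance between patterns over the 4 libraries, each gene taken relative to its own mean, the genes most like Dusp6 among 10558 candidates were the chemokine gene Cxcl1 (distance 0.036), Bcar3 (0.051) and Myc (0.051). Their differences were 1.03, 0.96 and 0.99. The genes most like Spred2 were Ecd (0.00071), Lgals3 (0.0029) and Lrrc8e (0.0063), with differences of 0.24 each. Values centred by pair hold only 2 free numbers per gene, so such likeness rests on the differences in both pairs alone.

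Of the fibroblast list 3 of 10 genes were tested, 2 of them called lower (Col1a1, Fbln2) and 1 higher (Fbln1), and its summed normalised counts were 2199 and 2214 in Nrf2-HET, against 3041 and 3040 in Nrf2-WT. Col1a1 lay at 7.83 and 7.75 in Nrf2-HET, against 9.04 and 9.12 in Nrf2-WT, and passed the level needed for the test only through Nrf2-WT. Muscle markers summed to 310 and 290 in Nrf2-HET, against 978 and 1021 in Nrf2-WT, mostly from Acta2. The 10 squamous markers summed to 197399 and 211488 in Nrf2-HET and to 195473 and 183370 in Nrf2-WT, with 3 called higher and 2 lower. Over all tested genes 21.5% were called higher and 18.9% lower. Dsg3 rose by 0.74 ± 0.05, Krt6a by 0.67 ± 0.06 and Krt17 by 0.38 ± 0.06, whereas Krt15 fell by 0.58 ± 0.07 and Krt14 by 0.13 ± 0.05. Immune markers summed to 377 and 414 in Nrf2-HET, against 190 and 168 in Nrf2-WT, nearly all from the lysosomal gene Cd68, with Ptprc, Cd3e and Adgre1 at the floor. Endothelial markers summed to at most 23.1 in any library. In bulk RNA, fewer cells of a type and less RNA per cell cannot be told apart. The part of these shifts in the values of the feedback genes was not tested.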

How the data were processed

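The sample titles give each library's genotype and replicate number. The design text of the series describes a human breast cancer line, conflicts with the title and all labels, and was not followed. Tools named, without roles, in the submitters' processing notes are DESeq2, DESeq 1.22.2, Salmon 0.11.3 and STAR 2.5.2b, with build mm9. Per the labels, the kits were TRIzol for RNA and NEBNext Ultra for libraries. The authors deposited variance-stabilised values on a log2 scale. Within each gene the sum of the 2 genotypes is equal for both replicate numbers (to within 1.31e-13), which is the source of the pairing; the labels do not record this centring.

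limma 3.58.1 (R 4.3.3) was fitted to the 10857 genes over the filter, with genotype, a replicate block (1 residual and 14.6 prior degrees of freedom) and a mean-variance trend. Tests were two-sided, with Benjamini-Hochberg adjustment over all genes tested and calls under 0.05. Precision is mostly borrowed across genes, and an exact test of 2 pairs cannot reach 0.05. If libraries are technical repeats, p-values measure only that spread. Normalised counts were back-calculated from each value and the floor, by undoing the variance stabilisation, which is approximate after centring. Depth is unknown, so no counting intervals are given. The genes and lists were chosen with earlier results of these data known. From each list, up to 3 called genes per direction with the largest difference and all family members were named. Mapk3, Ereg, Tgfa, Btc, Egf, Ccnd1, Egr1, Btg2, Cd68, Acta2 and the other cell type markers were added after their values were seen. Hras1 was matched as Hras.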

Additional observations from a re-analysis of the deposited data

How the results depend on the processing

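The numbers of calls over all genes ranged between 3593 and 6004 over 8 other settings. With 1 library left out, genotype alone was in the fit, and the lone library was assumed to vary like the others. In centred values such a fit understates the spread, and the left-out library still shapes the kept values. Its number of calls is therefore no check on the main fit and is not given. Without the replicate block 6004 genes were called against 4388, in a fit that counts too many residual degrees of freedom for centred values. The count of feedback genes past the threshold is a description, since the same contrast chose them. It was 5 with the stricter filter, which tested 8300 genes and left out Dusp4, Etv4 and Spry2. With no filter, which let Spry4 in, it was 9, and it was 8 in the other settings. Of the 86 tested genes in the other pathway lists 38 were called higher and 17 lower, with 36 to 42 higher and 15 to 20 lower over the 8 other settings. Dusp9, not called, changed sign to -0.014 with median centring and to -0.0027 with quantile normalization. With 1 library left out its difference ran between -0.030 and 0.037. Its main difference was 0.0036, from -0.06 in pair 1 and 0.07 in pair 2, so small shifts turn its sign. Of the named genes' other values, 9 lost and 3 gained a call and 565 kept direction and side of the threshold. Pairing the libraries crosswise leaves no residual in centred values, so it gives no test. Spry4, Dusp2 and Etv1 lie near the floor, and low depth and low expression cannot be told apart there.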
